A study of Mus musculus with 16 samples.

Results

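Elastic fibers let tissue recoil after stretch. They are built from microfibrils, bundles of fibrillin with small associated glycoproteins, onto which tropoelastin is deposited and then cross-linked by lysyl oxidases, with fibulins acting as adaptors between them. Microfibrils also hold latent TGF-β in the matrix, and in the adult heart the fibers lie mainly in vessel walls, valves, epicardium and the interstitium around muscle bundles. The 10 genes described here encode the fibrillins (Fbn1 and Fbn2), tropoelastin (Eln), the fibulins (Fbln1, Fbln2, Fbln5, Efemp1 and Efemp2, the latter pair encoding fibulin-3 and fibulin-4) and the microfibril-associated proteins (Mfap4 and Mfap5). They were chosen by name for their place in the fiber, each matched 1 row of the count table, and they are 10 of the 55573 genes counted, and all 10 were among the 16857 genes tested.

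RNA came from the apex of the heart of 16 male mice, 4 in each of 4 groups, taken 4 weeks after surgery. As newborns (postnatal day 1) the mice had received an AAV9 vector in which the cardiomyocyte-specific cTNT promoter drives either GFP (AAV9-GFP) or Cardinal (AAV9-Cardinal), the mouse long noncoding RNA Gm12295, whose counts pool vector and endogenous transcripts. At a body weight of 25 to 30 g they underwent sham surgery or TAC (transverse aortic constriction), which loads the left ventricle with pressure. Each vector was thus studied with sham surgery and with TAC. All 4 groups carried a vector and its promoter, and no uninjected heart was compared. The strain is not given in the sources used here, and the vector acts in cardiomyocytes, whereas the genes described here are best known from fibroblasts and smooth muscle.

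Libraries held between 16441997 and 21904589 counts, and all but 1 held at least 21525012. Levels are in CPM (counts relative to the TMM-scaled size of the library), and a level of 3 counts, taken as the floor, corresponds to between 0.126 and 0.195 CPM. Pairs of mice of the same group all differed by more than sampling noise, with a chi-square per degree of freedom of at least 5.32. Cardinal was counted at 3.42 to 7.24 CPM in the 8 AAV9-GFP mice and at 18.3 to 93.9 CPM in the 8 AAV9-Cardinal mice, so the labels held. The highest of these values, 93.9 CPM, belonged to AAV9-Cardinal TAC mouse 1, while the other 3 mice of its group held 18.3, 19.5 and 20.6 CPM. That mouse recurs below, and values without it are given beside the results it moved most. The labelled tissue showed its defining markers. Summed over 6 cardiomyocyte genes, the level was 23604 to 33496 CPM in every mouse, and of 3 atrial genes Myl7 and Sln were at 0 in every mouse of 3 of the groups, while Myl4 had a mean of 0.885 to 1.25 CPM in the 4 groups.

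Efemp1 and Efemp2 encode closely related short fibulins, and with AAV9-GFP they moved in opposite directions after TAC, so the sequences just before their starts are shown here for reference. Each line gives the 250 bases before a RefSeq transcript start on GRCm38.p6, read 5′ to 3′ on the plus strand. Capitals mark the GC box GGGCGG or its reverse complement CCGCCC. The Efemp1 window is chr11:28852955-28853204, and the Efemp2 window, the most upstream of the 3 listed starts, is chr19:5473696-5473945.
Efemp1: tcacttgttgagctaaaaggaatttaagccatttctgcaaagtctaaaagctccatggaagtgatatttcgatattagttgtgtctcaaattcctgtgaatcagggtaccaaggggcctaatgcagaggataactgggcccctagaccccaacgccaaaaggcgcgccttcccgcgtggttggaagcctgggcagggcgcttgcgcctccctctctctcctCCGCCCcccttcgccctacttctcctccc
Efemp2: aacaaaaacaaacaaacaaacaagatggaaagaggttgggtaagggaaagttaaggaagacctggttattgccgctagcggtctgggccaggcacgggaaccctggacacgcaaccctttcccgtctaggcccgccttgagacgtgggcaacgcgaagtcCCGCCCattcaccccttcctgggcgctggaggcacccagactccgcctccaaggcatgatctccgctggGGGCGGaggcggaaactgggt
The Efemp1 window held 1 GC box, with its first base at position -29 from the start, and the Efemp2 window held 2, at positions -90 and -21. The windows of the other 2 Efemp2 starts, which overlap each other and are not shown, held 5 each. With the 50 bases after the start included, the more downstream of these windows held 7. Among all 32851 promoter windows of the same table, which run from 250 bases before to 50 after the start, 35.7% held this motif. Windows were found for 6 of the 10 genes (Fbn1, Fbln1, Fbln2, Fbln5, Efemp1 and Efemp2). The same search, on both strands, covered TATAAA (13.6% of all windows), the Smad element GTCTAGAC (0.213%), the shorter Smad element CAGACA (21%), the AP-1 site TGAGTCA, whose reverse complement is TGACTCA (5.2%), the TEAD element GGAATG (14.7%) and the CArG box (1.63%). Of these, only CAGACA matched, in windows of Fbln1 and Fbln5. These matches describe letters in a window and say nothing of binding.

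TAC changed 7 of the 10 genes in AAV9-GFP hearts (edgeR's quasi-likelihood test, Benjamini-Hochberg adjusted p under 0.05), 6 upward and 1 downward. Over all genes tested, 17.4% changed in this comparison, 8.49% upward and 8.92% downward. Mfap4, Mfap5, Fbn1, Fbln2, Eln and Efemp2 rose, Efemp1 fell, and Fbln1, Fbln5 and Fbn2 did not pass the test. The median log2 fold change of the 10 genes was 0.63, against 0.01 over all genes tested. For 6 of the 10, the 4 TAC mice lay entirely above or below the 4 sham mice, which held for 20.3% of all genes tested. RNA from whole tissue cannot separate a change in the number of cells of a type from a change in RNA per cell.

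**Figure D1:**
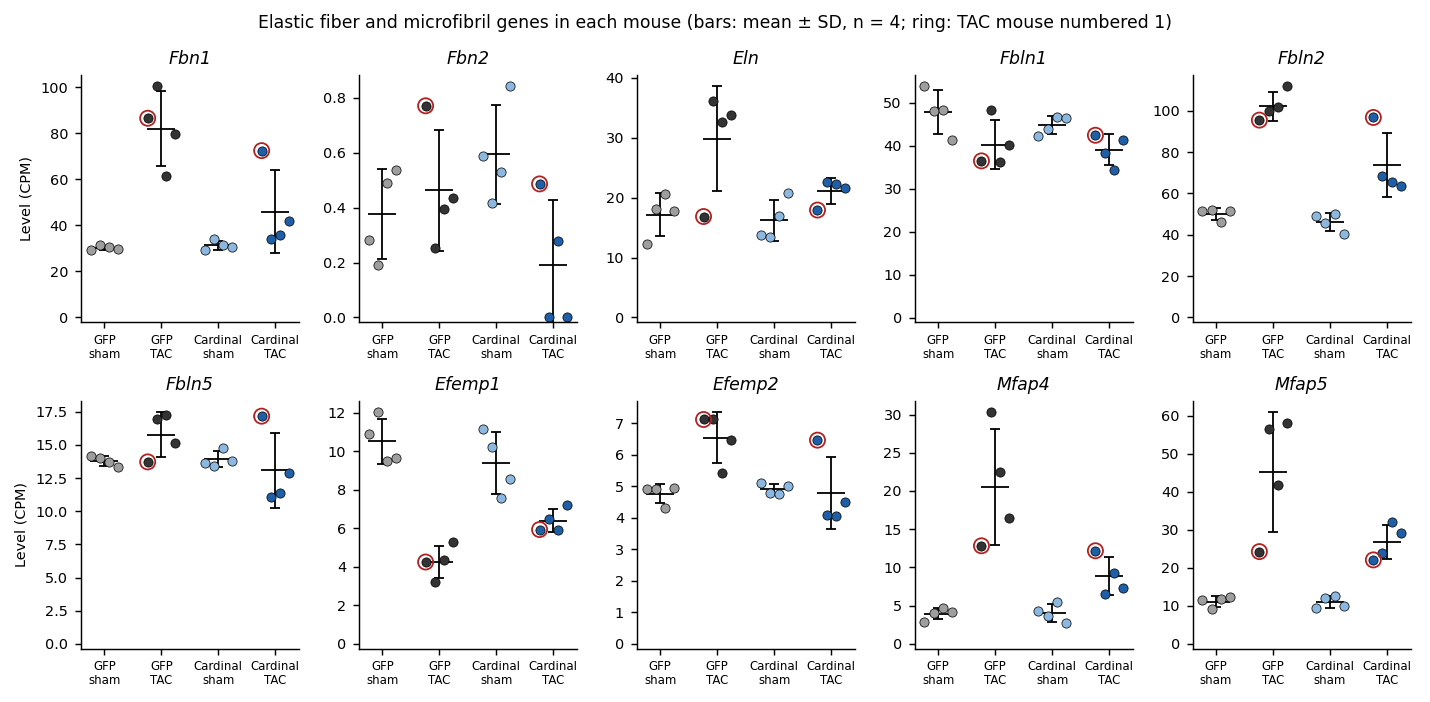
Level of each of the 10 genes in every mouse (vertical axis, CPM, starting at about 0; horizontal axis, the 4 groups). Points are mice, bars are the mean ± SD (n = 4), and a ring marks the TAC mouse numbered 1 of each vector: in AAV9-Cardinal TAC hearts this mouse is the highest of its group for Fbn1 (72.4 CPM) and Fbln2 (96.7 CPM).

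Fibrillin-1, the main structural protein of adult microfibrils, is encoded by Fbn1 (chromosome 2, 125300594 to 125507993, minus strand, GRCm38). In AAV9-GFP hearts Fbn1 was at 29.1, 31.3, 30.4 and 29.7 CPM in the sham mice and at 86.5, 100.4, 61.4 and 79.7 CPM in the TAC mice. Every TAC mouse was thus above every sham mouse, and the sham mice were within a narrow band. The log2 fold change was 1.45 ± 0.20 (SE; edgeR adjusted p = 0.00020), from 30.1 ± 0.92 to 82.0 ± 16.2 CPM (SD, n = 4). Of the 50-base stretches of Fbn1, 19.7% also occur in another annotated gene, and 20.1% of its exon bases overlap Gm9913 on the opposite strand, which held 0 to 4 counts per mouse. The stretches were sought on both strands, so the overlap with Gm9913 enters the first share as well, and these shares are not independent.

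Fibrillin-2, encoded by Fbn2 (chromosome 18, 58008623 to 58210487, minus strand), is best known from fetal microfibrils, and the gene was barely counted. It had 6, 4, 10 and 11 counts in the AAV9-GFP sham mice and 18, 6, 9 and 10 in the AAV9-GFP TAC mice. These ranges overlap, and the log2 fold change of 0.30 ± 0.61 did not pass the test (edgeR adjusted p = 0.81). In AAV9-Cardinal hearts the counts were 13, 9, 11 and 13 after sham surgery and 11, 0, 6 and 0 after TAC. A count of 0 in the latter pair allows levels of up to 0.141 and 0.138 CPM, and all differences of Fbn2 are at the edge of what these depths can show.

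Tropoelastin is the soluble precursor that forms the elastic core, and its gene Eln (chromosome 5, 134702593 to 134747323, minus strand) was at 12.2, 18.1, 20.6 and 17.7 CPM in AAV9-GFP sham mice. After TAC with the same vector it was at 16.8, 36.1, 32.7 and 33.7 CPM. TAC mouse 1 lay within the sham range and the other 3 lay above it, so the groups overlapped (exact two-sided permutation p = 0.11, where 70 labelings allow no p below 0.029). The model across all genes gave a log2 fold change of 0.80 ± 0.21 (edgeR adjusted p = 0.017). Left without 1 mouse at a time, Eln stayed past the threshold in 14 of 16 fits and missed it without AAV9-GFP sham mouse 1 or TAC mouse 3 (edgeR adjusted p of up to 0.061), as it did in a fit of only the mice compared (edgeR adjusted p = 0.056). Of 7 genes of smooth muscle, a known source of elastin in vessel walls, 1 rose and 1 fell after TAC, and their summed level was 203 to 223 CPM in AAV9-GFP TAC mice against 232 to 426 CPM in sham mice.

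Among the fibulins, Fbln2 (fibulin-2; chromosome 6, 91212455 to 91272540, plus strand), a large fibulin of remodeling tissue, had the most even response. Sham mice of the AAV9-GFP group were at 51.3, 52.0, 46.0 and 51.3 CPM and TAC mice at 95.5, 99.7, 102 and 112 CPM. The groups did not overlap, and the log2 fold change was 1.03 ± 0.11 (edgeR adjusted p = 4.0e-05). Fbln1 (fibulin-1; chromosome 15, 85205949 to 85286535, plus strand), at a similar sham level, went the other way by a small amount. It was at 53.8, 48.0, 48.2 and 41.4 CPM in sham and 36.4, 48.2, 36.1 and 40.1 CPM in TAC mice, with a log2 fold change of -0.25 ± 0.10 that did not pass the test (edgeR adjusted p = 0.094), although it did without AAV9-GFP sham mouse 4 or TAC mouse 3. Fbln5 (fibulin-5; chromosome 12, 101746565 to 101819055, minus strand), which binds tropoelastin and lysyl oxidase-like enzymes and is required for fiber assembly, was at 13.3 to 14.1 CPM in sham and 13.7 to 17.3 CPM in TAC mice (log2 fold change 0.19 ± 0.11, edgeR adjusted p = 0.28).

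The short fibulins diverged. Efemp1 (fibulin-3; chromosome 11, 28853204 to 28926743, plus strand) was at 10.9, 12.0, 9.51 and 9.63 CPM in AAV9-GFP sham mice and at 4.24, 3.23, 4.33 and 5.26 CPM in TAC mice. It was the only one of the 10 genes that fell past the threshold, with no overlap between the groups and a log2 fold change of -1.30 ± 0.14 (edgeR adjusted p = 4.4e-05). Efemp2 (fibulin-4; chromosome 19, 5473954 to 5482517, plus strand), which brings lysyl oxidase to tropoelastin, was at 4.92, 4.90, 4.31 and 4.94 CPM in sham and 7.12, 7.13, 5.42 and 6.48 CPM in TAC mice. Its rise was small (log2 fold change 0.46 ± 0.13, edgeR adjusted p = 0.026), and it missed the threshold in 4 of the 16 fits that left out 1 mouse (AAV9-GFP sham mouse 2 or 3 or TAC mouse 1 or 3, edgeR adjusted p of up to 0.079). Of its exon bases 4.57% overlap Mus81 on the opposite strand, at 177 to 326 counts per mouse, and whether counting used strand is not given in the sources used here. The ratio of Efemp1 to Efemp2 within a mouse, a measure chosen after the values were seen, was 1.95 to 2.45 in AAV9-GFP sham mice and 0.453 to 0.812 in AAV9-GFP TAC mice. In AAV9-Cardinal hearts it was 1.60 to 2.19 after sham surgery and 0.918 to 1.59 after TAC.

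The microfibril-associated genes had the highest fold changes of the 10. Mfap4 (chromosome 11, 61485431 to 61488900, plus strand) encodes an extracellular glycoprotein that binds elastin, fibrillin and integrins. It was at 2.88, 4.03, 4.66 and 4.16 CPM in AAV9-GFP sham mice and at 12.8, 30.3, 22.4 and 16.5 CPM in TAC mice. All TAC mice were above all sham mice, with a log2 fold change of 2.38 ± 0.28 (5.22-fold, edgeR adjusted p = 5.9e-05). Mfap5 (chromosome 6, 122505845 to 122529290, plus strand) encodes MAGP-2, a component of the microfibril itself. Its levels were 11.4, 9.03, 11.7 and 12.2 CPM in sham mice and 24.3, 56.6, 41.9 and 58.1 CPM in TAC mice, again without overlap (log2 fold change 2.03 ± 0.22, 4.07-fold, edgeR adjusted p = 4.2e-05). AAV9-GFP TAC mouse 1 was the lowest TAC mouse for Mfap4, Mfap5, Eln, Fbln2 and Fbln5, though not for Fbn1, Fbn2, Fbln1, Efemp1 or Efemp2. Of the exon bases of Mfap4, 4.63% overlap Mapk7 on the opposite strand, at 66 to 177 counts per mouse.

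Each of the 5 genes Fbn1, Fbln2, Efemp1, Mfap4 and Mfap5 passed the test in all 16 fits that left out 1 mouse. In AAV9-GFP hearts the fibroblast genes moved with them in part. Of 8 fibroblast markers, 4 rose (among them Col1a1, by 1.46 on the log2 scale, and Col3a1, by 1.49) and Pdgfra (0.18), Tcf21 (0.36), Dcn (0.06) and Dpt (-0.17) did not pass the test. Of 5 genes of activated fibroblasts, 4 were tested and Postn (log2 fold change 2.87), Cilp (3.62) and Thbs4 (2.70) rose, and their summed level was 28.2 to 31.3 CPM in sham and 179 to 307 CPM in TAC mice. The summed fibroblast markers were at 540 to 614 CPM in sham and 793 to 994 CPM in TAC mice, and the summed cardiomyocyte markers at 31423 to 32850 CPM and 23604 to 28613 CPM. Of 6 cardiomyocyte genes, 4 fell (Myh6, Tnnt2, Tnni3 and Ryr2), Mybpc3 rose (log2 fold change 0.21) and Actn2 (0.20) did not pass the test. Myh6 was the largest part of the sum, at a mean of 19200 CPM in sham and 15329 CPM in TAC mice. Macrophage markers were at 105 to 121 CPM in sham and 123 to 141 CPM in TAC mice, and 1 of 6 rose. Endothelial markers were at 447 to 546 CPM and 521 to 635 CPM, and 2 of 6 rose. Pericyte markers were at 920 to 1001 CPM and 836 to 886 CPM, but only Abcc9 fell (-0.67), from a mean of 364 to 229 CPM. Of the other pericyte genes, Pdgfrb (0.55) and Notch3 (0.27) rose, and Rgs5 and Kcnj8 did not pass the test. Mesothelial markers, at 5.58 to 11.8 CPM and 3.81 to 9.27 CPM, overlapped, and Krt19 was at 0 in every TAC mouse. The part of cell composition in the changes of the 10 genes was not tested.

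With AAV9-Cardinal, TAC changed 4 of the 10 genes, 3 upward and 1 downward, where 6.48% of all genes tested changed (3.1% upward and 3.38% downward). Mfap5, Mfap4 and Fbln2 rose and Efemp1 fell, and these were also the genes without overlap between the 4 sham and 4 TAC mice, which held for 13.7% of all genes tested. The median log2 fold change of the 10 genes was 0.17, against 0.00 over all genes tested. Only Fbln2 and Mfap5 passed without the filter on low counts, and likewise without AAV9-Cardinal sham mouse 1, sham mouse 2 or TAC mouse 5, where 2.03% of all genes tested (no filter) and 3.4%, 2.31% and 2.25% (without those mice) passed. DESeq2 called 5 of the 9 to which it gave an adjusted p, the same 4 and Fbn1, against 9.19% of all such genes.

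**Figure D2:**
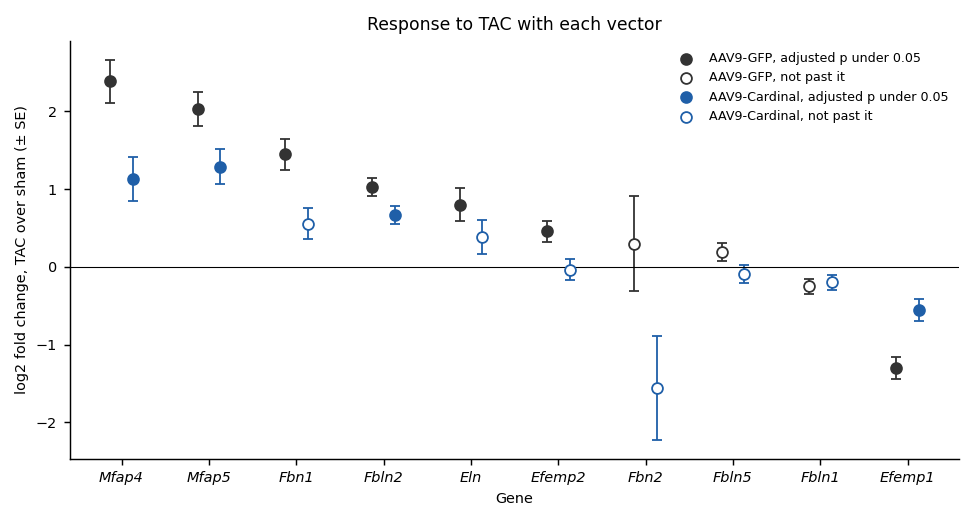
Log2 fold change of TAC over sham for each gene (vertical axis, ± SE; horizontal axis, genes in the order of the AAV9-GFP values). Black symbols are AAV9-GFP and blue symbols AAV9-Cardinal, filled where the edgeR adjusted p was under 0.05: the values run from 2.38 for Mfap4 to -1.30 for Efemp1 with AAV9-GFP, and the AAV9-Cardinal values of Mfap4 (1.13) and Efemp1 (-0.56) lie nearer to 0.

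Mfap5 was at 9.53, 12.0, 12.5 and 9.93 CPM in AAV9-Cardinal sham mice and at 22.1, 24.01, 32.1 and 29.1 CPM in AAV9-Cardinal TAC mice. Its log2 fold change was 1.28 ± 0.22 (edgeR adjusted p = 0.0055), and it passed in all 16 fits that left out 1 mouse. Mfap4 was at 4.34, 3.58, 5.43 and 2.66 CPM in sham and 12.2, 6.53, 9.27 and 7.32 CPM in TAC mice, a log2 fold change of 1.13 ± 0.28 (edgeR adjusted p = 0.030). Here mouse 1 was the highest TAC mouse, and without it the log2 fold change was 0.93 (edgeR adjusted p = 0.061). It also missed the threshold without AAV9-Cardinal sham mouse 1, 2 or 4 or TAC mouse 5 (edgeR adjusted p of up to 0.093).

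Fbln2 was at 49.0, 45.7, 50.1 and 40.5 CPM in AAV9-Cardinal sham mice and 96.7, 68.4, 65.6 and 63.6 CPM in AAV9-Cardinal TAC mice. Mouse 1 stood above the other 3 TAC mice, which were within 5 CPM of each other and still above every sham mouse. The log2 fold change was 0.67 ± 0.11 (edgeR adjusted p = 0.0046) with that mouse and 0.51 without it (edgeR adjusted p = 0.0027). Efemp1, at 11.2, 10.2, 7.59 and 8.56 CPM in sham and 5.93, 6.49, 5.91 and 7.18 CPM in TAC mice, fell (log2 fold change -0.56 ± 0.14, edgeR adjusted p = 0.031) and the groups did not overlap. It missed the threshold without AAV9-Cardinal sham mouse 1 or 2 or TAC mouse 1, 4 or 5 (edgeR adjusted p of up to 0.097).

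Fbn1 did not pass the edgeR test in AAV9-Cardinal hearts, although it passed in DESeq2 (DESeq2 adjusted p = 0.043). The sham mice were at 29.2, 34.1, 31.3 and 30.6 CPM and the TAC mice at 72.4, 34.0, 35.7 and 41.7 CPM. Only mouse 1 was in the range of the AAV9-GFP TAC mice (61.4 to 100.4 CPM), and TAC mouse 4 was within the sham range. The log2 fold change was 0.55 ± 0.20 (edgeR adjusted p = 0.11), and 0.25 without mouse 1 (edgeR adjusted p = 0.25). Without that mouse, 3 of the 10 genes passed (Fbln2 and Mfap5 upward, Fbn2 downward), where 8.41% of all genes tested did. The fall of Fbn2 (log2 fold change -2.57, edgeR adjusted p = 0.048) rests on 0, 6 and 0 counts in the remaining TAC mice.

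Efemp2 and Fbln5 showed the same single mouse apart. Efemp2 was at 5.11, 4.79, 4.76 and 5.00 CPM in AAV9-Cardinal sham and 6.46, 4.09, 4.05 and 4.51 CPM in AAV9-Cardinal TAC mice (log2 fold change -0.04 ± 0.14, edgeR adjusted p = 0.92). Fbln5 was at 13.7, 13.4, 14.8 and 13.8 CPM and at 17.2, 11.04, 11.4 and 12.9 CPM (-0.09 ± 0.12, edgeR adjusted p = 0.74). In both genes mouse 1 was above all sham mice and the other 3 TAC mice were below all of them. Without mouse 1 the log2 fold changes were -0.22 for Efemp2 (edgeR adjusted p = 0.23) and -0.24 for Fbln5 (edgeR adjusted p = 0.090). Eln, at 13.8, 13.5, 16.9 and 20.8 CPM in sham and 17.9, 22.6, 22.3 and 21.6 CPM in TAC mice, had a log2 fold change of 0.38 ± 0.21 (edgeR adjusted p = 0.32), and in it mouse 1 was the lowest TAC mouse. Fbln1 was at 42.2 to 46.7 CPM in sham and 34.2 to 42.4 CPM in TAC mice (-0.20 ± 0.10, edgeR adjusted p = 0.26).

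The same mouse stood apart in the markers of fibroblasts. Summed activated fibroblast genes were at 150 CPM in AAV9-Cardinal TAC mouse 1 and at 49.2 to 64.3 CPM in the other 3, and summed fibroblast markers at 919 CPM against 527 to 572 CPM. Its cardiomyocyte sum was 28638 CPM, below the others of its group, and its Cardinal level was the highest in the series. Which of these goes with its levels of Fbn1, Fbln2, Efemp2 and Fbln5 was not tested.

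Cardinal was compared directly with GFP in TAC hearts, and 0 of the 10 genes passed the edgeR threshold, as 0.101% of all genes tested did. At an unadjusted p under 0.05 there were 8 of the 10, against 15% of all genes, and 9 of the 10 fold changes were negative. DESeq2 called 5 (Fbn1, Fbln2, Efemp1, Mfap4 and Mfap5), out of 8 to which it gave an adjusted p, against 4.75% of all such genes. The 4 mice of each vector did not overlap for Mfap4 and Efemp1, against 6.77% of all genes tested. The median log2 fold change of the 10 genes was -0.49, against -0.01 over all genes tested. Cell type markers moved beside them: all 8 fibroblast markers were lower with AAV9-Cardinal (median log2 fold change -0.36, 0 passed in edgeR), as were all 4 tested genes of activated fibroblasts (median -1.54, 1 passed), and all 6 cardiomyocyte markers were higher (median 0.23, 0 passed). Their summed levels were 793 to 994, 179 to 307 and 23604 to 28613 CPM with AAV9-GFP against 527 to 919, 49.2 to 150 and 28638 to 31076 CPM with AAV9-Cardinal. All 6 macrophage markers were lower as well (median -0.21), as were 5 of 6 endothelial markers (median -0.10). Of the pericyte markers 4 of 5 were lower (median -0.17), and of the smooth muscle markers 4 of 7 (median -0.05). In these lists 0 passed in edgeR. Among markers to which DESeq2 gave an adjusted p, it called 2 of 7 fibroblast and 3 of 3 activated fibroblast markers. It also called 4 of 6 cardiomyocyte and 3 of 5 pericyte markers, against 4.75% of all such genes. Of macrophage, endothelial and smooth muscle markers it called 0 of 4, 0 of 6 and 0 of 4. The part of all these markers in the result was not tested.

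The values behind this comparison are those given above. Mfap4 was at 20.5 ± 7.63 CPM with AAV9-GFP and 8.82 ± 2.51 CPM with AAV9-Cardinal (SD, n = 4), a log2 fold change of -1.22 ± 0.26 (edgeR adjusted p = 0.063; exact two-sided permutation p = 0.029, the smallest possible). Fbn1 was at 82.0 ± 16.2 and 45.9 ± 17.9 CPM (-0.83 ± 0.19, edgeR adjusted p = 0.082), and Mfap5 at 45.2 ± 15.7 and 26.8 ± 4.58 CPM (-0.75 ± 0.21, edgeR adjusted p = 0.12). Fbln2 was 0.47 ± 0.11 lower (log2 fold change -0.47, edgeR adjusted p = 0.082) and Efemp2 0.45 ± 0.13 lower (log2 fold change -0.45, edgeR adjusted p = 0.13). Efemp1, which fell with TAC, was the one gene with a higher level under AAV9-Cardinal TAC, at 6.38 ± 0.60 against 4.27 ± 0.83 CPM (0.58 ± 0.15, edgeR adjusted p = 0.098; exact two-sided permutation p = 0.029). Fbln1 was at 40.2 ± 5.65 and 39.1 ± 3.68 CPM, with a log2 fold change of -0.04 ± 0.10.

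**Figure D3:**
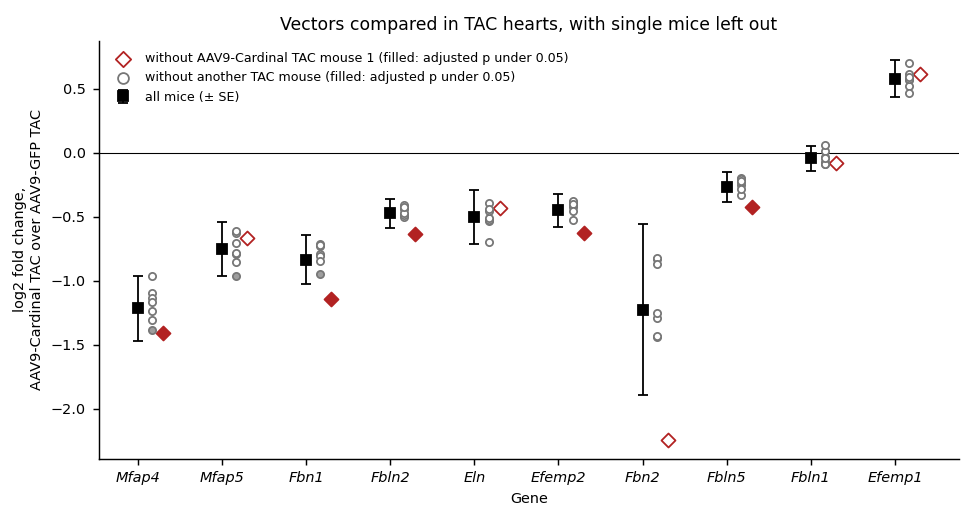
Log2 fold change of AAV9-Cardinal TAC over AAV9-GFP TAC for each gene (vertical axis; horizontal axis, genes). Black squares are all mice (± SE), gray circles the fits without 1 of the other TAC mice and red diamonds the fit without AAV9-Cardinal TAC mouse 1, filled where the edgeR adjusted p was under 0.05: without that mouse Fbn1 moves from -0.83 to -1.14 and passes, whereas Mfap5 moves from -0.75 to -0.67 and does not.

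These calls turned on single mice. Without AAV9-Cardinal TAC mouse 1, 5 of the 10 genes passed in edgeR (Fbn1, Fbln2, Fbln5, Efemp2 and Mfap4), where 3.13% of all genes tested did. In that fit the log2 fold change of Fbn1 was -1.14 (edgeR adjusted p = 0.00034), that of Fbln2 -0.63 (0.00044) and that of Efemp2 -0.63 (0.0054). Without AAV9-GFP TAC mouse 1, Mfap4 and Mfap5 passed, where 0.335% of all genes tested did, and without AAV9-GFP TAC mouse 4, Fbn1 alone did, where 0.463% of all did. None of the 10 passed in the 13 other fits that left out 1 mouse. With both TAC mice numbered 1 left out, a choice made after the values were seen, 6 of the 10 passed (Fbn1, Fbln2, Fbln5, Efemp2, Mfap4 and Mfap5), where 2.31% of all genes tested did.

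Whether TAC acted differently under the 2 vectors was tested as the difference between the TAC responses. By edgeR 0 of the 10 genes passed, as 0.0119% of all genes tested did, and 6 of the 10 had an unadjusted p under 0.05 against 10.2% of all genes. The largest differences among well-counted genes were those of Mfap4 (-1.26 ± 0.40, edgeR adjusted p = 0.32), Fbn1 (-0.89 ± 0.28, edgeR adjusted p = 0.32), Mfap5 (-0.74 ± 0.31, edgeR adjusted p = 0.44) and Efemp1 (0.74 ± 0.20, edgeR adjusted p = 0.30), all on the log2 scale. DESeq2 gave an adjusted p to 3 of the 10 and called 1 of them, Fbn1, against 5.53% of all genes with an adjusted p from it. Without AAV9-Cardinal TAC mouse 1, 3 genes passed in edgeR (Fbn1, Fbln2 and Efemp2), against 0.463% of all genes tested.

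In sham hearts the vectors were compared as well, and 0 of the 10 genes passed in edgeR, as 0.0119% of all genes tested did, or in DESeq2, where 0.0237% did. At an unadjusted p under 0.05 the count was also 0, against 2.59% of all genes tested, and for all 10 genes the 4 mice of each vector overlapped, where 2.36% of all genes tested did not. Fbn1 was at 30.1 ± 0.92 CPM with AAV9-GFP and 31.3 ± 2.06 CPM with AAV9-Cardinal (SD, n = 4). Apart from Fbn2 (0.63 ± 0.60), the log2 fold changes lay between -0.16 (Efemp1) and 0.06 (Fbn1).

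Per length of exon, the order of the genes in unstressed hearts was led by the fibulins. In AAV9-GFP sham mice Fbln1 was at 10.95 ± 1.17 CPM per kb (SD, n = 4), Fbln2 at 7.87 ± 0.44 and Efemp1 at 5.16 ± 0.58, and each of these was above the next in every mouse. Mfap5 (3.09), Fbn1 (2.48), Eln (2.12), Mfap4 (2.05) and Fbln5 (2.00 CPM per kb) followed, each overlapping its neighbor in this order. Efemp2 was lower at 1.26 CPM per kb, and Fbn2 lowest at 0.028 CPM per kb. After TAC with AAV9-GFP the order was Fbln2 (16.04 CPM per kb), Mfap5 (12.6), Mfap4 (10.7), Fbln1 (9.21) and Fbn1 (6.76), each overlapping the next, and Efemp1 was eighth at 2.09 CPM per kb. The choice of length changed this order. Per kb of the longest coding transcript, Mfap5 (7.36 CPM per kb) was above Efemp1 (5.16 CPM per kb) in sham hearts, and in TAC hearts Mfap5 (30.0 CPM per kb) came before Fbln2 (21.4 CPM per kb), with overlap between them.

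**Figure D4:**
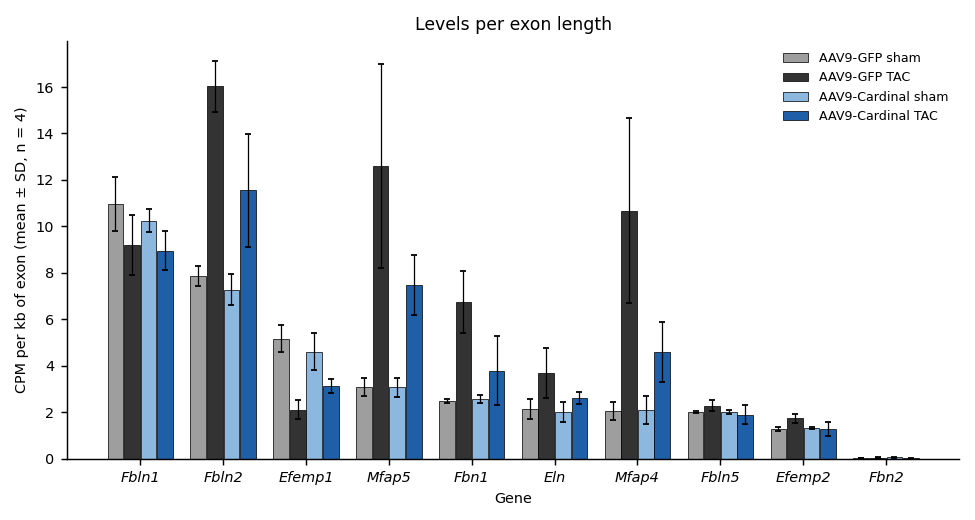
Level per kb of exon (vertical axis, CPM per kb, mean ± SD, n = 4) for each gene (horizontal axis) in the 4 groups. Bars start at 0. In sham hearts Fbln1 is highest (10.95 CPM per kb with AAV9-GFP), and in AAV9-GFP TAC hearts Fbln2 is (16.04 CPM per kb).

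Genes with the most similar pattern were sought among 14292 others with a mean of at least 1 CPM, by the root mean square difference of log2 CPM over the 16 mice after centering each gene. For Fbn1 these were the collagen gene Col1a1 (0.10), the small proteoglycan gene Bgn (0.17) and the basement membrane collagen gene Col15a1 (0.19), against a median of 0.64. For Mfap5 they were the proteoglycan gene Vcan (0.22) and the muscle gene Xirp2 (0.26), against a median of 0.91. Mfap4 was closest to Dkk3 (0.35), Postn (0.35) and the processed pseudogene Gm8543 (0.38), against a median of 1.03, and counts on a pseudogene can come from its parent gene. Col1a1 was at 39.8, 109.4, 41.2 and 61.0 CPM (group means with AAV9-GFP after sham surgery and TAC, then with AAV9-Cardinal after sham surgery and TAC), where Fbn1 was at 30.1, 82.0, 31.3 and 45.9 CPM. The likeness is a description over mice that share the same groups.

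The rest of the elastic fiber pathway was described with 47 further genes, of which 44 were tested. In AAV9-GFP hearts 19 rose and 3 fell after TAC, where 8.49% of all genes tested rose and 8.92% fell, with a median log2 fold change of 0.23. All 5 lysyl oxidases, which cross-link tropoelastin and collagen, rose: Lox by 1.58 and Loxl2 by 1.504 on the log2 scale, Loxl1 by 1.24, Loxl4 by 0.92 and Loxl3 by 0.81. Loxl4, at a mean of 0.42 CPM in sham and 0.81 CPM in TAC mice, passed in 10 of 16 fits that left out 1 mouse. DESeq2 called 4 of the 5, not Loxl4 (DESeq2 adjusted p = 0.095). Of the 4 latent TGF-β binding proteins, which attach to fibrillin, Ltbp2 rose most, from 1.20 ± 0.16 to 11.5 ± 4.29 CPM (3.27 ± 0.40, edgeR adjusted p = 8.3e-05), Ltbp3 and Ltbp4 rose by 0.30 and 0.48, and Ltbp1 fell from 44.7 ± 2.34 to 28.8 ± 2.70 CPM (-0.64 ± 0.07, edgeR adjusted p = 3.6e-05). Emilins, glycoproteins at the surface of the elastic core, were also divided, with Emilin1 up by 0.81 and Emilin2 down from 35.5 ± 5.61 to 19.4 ± 2.98 CPM (-0.87 ± 0.13, edgeR adjusted p = 0.00030).

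Among 9 ADAMTS and ADAMTS-like genes, whose products bind or process microfibrils, 4 rose, with Adamtsl2 the largest (7.33 ± 2.02 to 22.4 ± 7.38 CPM, 1.61 ± 0.32, edgeR adjusted p = 0.0028). Of the other microfibril-associated genes, 1 of 6 rose (Mfap2, 0.86) and 1 fell (Mfap1b, -0.19), the latter encoding a protein of the splicing machinery. Mfap2 was near the threshold (edgeR adjusted p = 0.048) and missed it in DESeq2 (DESeq2 adjusted p = 0.061). In the 16 fits that left out 1 mouse, Mfap2 passed in 4 and Mfap1b in 11. Of 7 elastases and cathepsins tested, 2 rose (Mmp14, 0.66, and Mmp2, 0.53), and of 9 receptor genes 3 rose (Itgb3, Itgb8 and Itga5, by 0.91, 0.88 and 0.77). Fbln7, Emilin3 and Elane did not pass the filter on low counts.

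**Figure D5:**
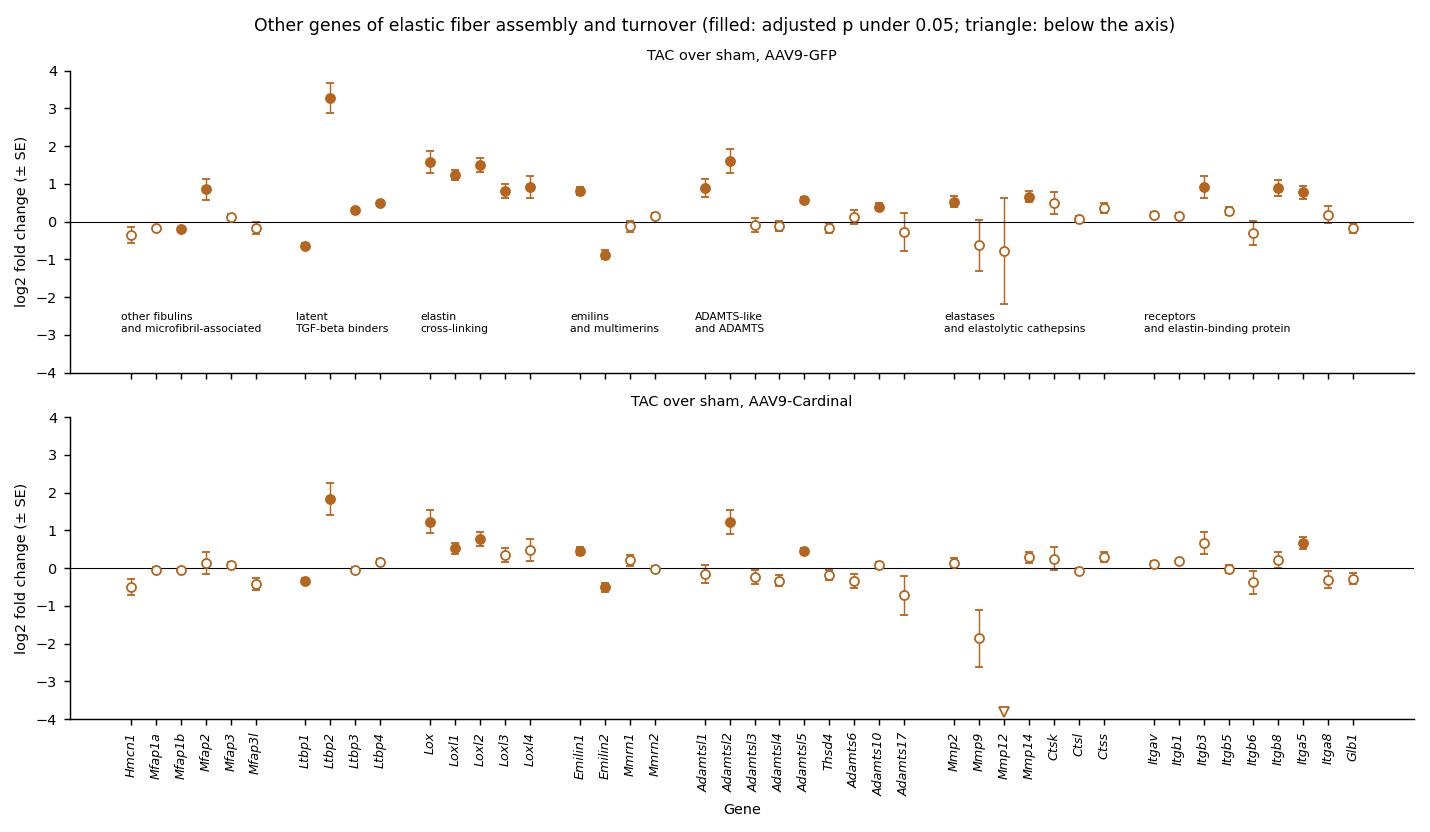
Log2 fold change of TAC over sham (vertical axes, ± SE) for the 44 tested genes of elastic fiber assembly and turnover (horizontal axis, by group) with AAV9-GFP (upper) and AAV9-Cardinal (lower). Filled symbols had an edgeR adjusted p under 0.05: 19 higher and 3 lower above, 8 higher and 2 lower below. The triangle is Mmp12, which had 0 counts in every AAV9-Cardinal TAC mouse.

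With AAV9-Cardinal, 8 of these 44 genes rose after TAC and 2 fell, where 3.1% of all genes tested rose and 3.38% fell, with a median log2 fold change of 0.08. Ltbp2 rose from 1.13 ± 0.31 to 4.04 ± 2.92 CPM (1.83 ± 0.42, edgeR adjusted p = 0.021), but mouse 1 was at 8.41 CPM and the other 3 at 2.21 to 2.89 CPM, and without mouse 1 the log2 fold change was 1.19 (edgeR adjusted p = 0.024). Lox rose from 2.73 ± 0.58 to 6.37 ± 1.31 CPM (1.23 ± 0.30, edgeR adjusted p = 0.028), and Loxl1 and Loxl2 by 0.53 and 0.78 on the log2 scale. Loxl1 (edgeR adjusted p = 0.043) passed in 6 of 16 fits that left out 1 mouse, Lox in 10 and Loxl2 in 12. Without mouse 1 the log2 fold change of Loxl1 was 0.45 (edgeR adjusted p = 0.082) and that of Loxl2 0.50 (edgeR adjusted p = 0.033). Ltbp1 and Emilin2 fell here too (log2 fold changes -0.33 ± 0.07 and -0.51 ± 0.13, with edgeR adjusted p = 0.012 and 0.029). Between the vectors, 0 of the 44 genes passed in edgeR in TAC hearts (17 at an unadjusted p under 0.05, against 15% of all genes tested), in sham hearts (0, against 2.59%) or in the difference of responses (10, against 10.2%). DESeq2 called 8 of the 28 to which it gave an adjusted p in TAC hearts (4.75% of all such genes), 0 of 44 in sham hearts (0.0237%), and 1 of 6 (Ltbp4) in the difference (5.53%).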

How the data were processed

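Per the labels and the study's methods, poly(A)-selected RNA was read in single-end mode with 50 bases per read. Raw counts per Ensembl gene were deposited by the authors, 1 column for each of 16 mice. The submitters' processing notes list GRCm38, FastQC, HISAT2 2.1.0 and edgeR 3.26.1, and the counting program, annotation, use of strand and treatment of reads with several matches are not given in the sources used here. GENCODE M21 named 55480 of 55573 genes.

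Counts were fitted in R 4.3.3 with edgeR 4.0.16 (TMM scaling, expression filter by group, quasi-likelihood test, all 16 mice with the 4 groups as terms and 5 contrasts), with Benjamini-Hochberg adjustment over all 16857 genes tested and a threshold of 0.05. The SE is the absolute log2 fold change divided by the square root of the F statistic of its test. Simulated data were used to check the calls, signs and fold changes of this fit, but not the SE. Single genes were also compared by exact two-sided permutation of 4 against 4 mice on log2 CPM (prior count 2). DESeq2 1.42.0, other scaling and filters, fewer mice and a replicate block were alternatives. Plots used matplotlib 3.10.9 in Python 3.11.15.

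The genes, lists and tests were chosen with earlier results of these data known. The text names all 10 genes, up to 2 genes in each direction of the pathway list by fold change (mean of at least 1 CPM) with group summaries named beside them, and the 3 nearest genes of the 3 most changed members (1 is not reported here). Samples numbered within a group were read as separate mice, and p-values measure only the spread between them. Floors cover counting error only. No column was left unused.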

Additional observations from a re-analysis of the deposited data

Results flagged for a closer look

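In 100 groups of 4 mice (the 10 genes, Cardinal, the named pathway genes and the marker sums), 13 held a mouse farther from the other 3 than Dixon's 95% critical value for the gap over the range, where chance gives about 1 in 20 groups. The groups are not independent, since genes of the same mice recur, and 7 of the 13 belonged to AAV9-Cardinal TAC mouse 1. In that mouse Fbln2 was at 96.7 CPM (others 63.6 to 68.4), Cardinal at 93.9 CPM (others 18.3 to 20.6), Adamtsl2 at 20.1 CPM (others 13.4 to 14.1) and Ltbp2 at 8.41 CPM (others 2.21 to 2.89). Its summed fibroblast markers were at 919 CPM (others 527 to 572), its activated fibroblast markers at 150 CPM (others 49.2 to 64.3) and its cardiomyocyte markers at 28638 CPM, below the others.

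AAV9-GFP sham mouse 3 was the lowest of its group for Fbln2 (46 CPM, others 51.3 to 52) and Efemp2 (4.31 CPM, others 4.9 to 4.94). In AAV9-GFP TAC mouse 3, Ltbp2 was at 18 CPM (others 8.87 to 9.8). Summed smooth muscle markers were at 426 CPM in AAV9-GFP sham mouse 4 (others 232 to 239), whose Eln level of 17.7 CPM was within its group. In AAV9-Cardinal sham hearts, mouse 1 held 576 CPM of fibroblast markers (others 523 to 528) and mouse 4 held 5.45 CPM of mesothelial markers (others 7.77 to 8.23).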

How the results depend on the processing

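What the replicate numbers in the labels stand for is not given. Same-numbered mice correlated at -0.0404 to 0.211 in their deviations from the group means. The value was over 0.1 in 4 of 16 pairs, all 4 of them pairs of mice numbered 1. All pairs of mice numbered 1 were positive, at 0.067 to 0.211. Pairs with different numbers correlated at -0.193 to 0.218. Whether the mice numbered 1 share a factor was not tested. With the mouse number as a replicate block, 6 of the 10 genes passed for TAC with AAV9-GFP (Efemp2 missed, edgeR adjusted p = 0.058). With AAV9-Cardinal 1 passed (Mfap5, Efemp1 and Mfap4 missed, edgeR adjusted p = 0.089, 0.094 and 0.12), and 0 passed in the other comparisons. Of all genes tested, 2091 passed for TAC with AAV9-GFP and 31 for TAC with AAV9-Cardinal. Between vectors 0 passed in TAC hearts and 1 in sham hearts, and 1 passed in the difference. Under the block, TAC with AAV9-Cardinal turned positive for Fbln5 (0.037) and Efemp2 (0.088), as did Fbln1 between vectors in TAC hearts (0.067). AAV9-Cardinal TAC mice 5 and 6 and AAV9-GFP TAC mouse 7 bear numbers that no other mouse has. Each of these 3 mice is absorbed by its own block term. The AAV9-Cardinal TAC level under the block therefore rests on mice 1 and 4 only.

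For TAC with AAV9-GFP, 6 to 8 of the 10 genes passed under every alternative run, as did 1962 to 3250 of all genes tested. For TAC with AAV9-Cardinal, no filter gave 2 of the 10 (615 of all genes), and leaving out 1 mouse gave 2 to 4 of the 10 and 384 to 1436 of all genes. Between vectors in TAC hearts, all-gene calls were 35 with at least 1 CPM in at least 4 mice, 428 with DESeq2, 3 with no filter, 3 with only the mice compared, and 0 to 535 without 1 mouse, and calls among the 10 were 5 with DESeq2 and 0 to 5 without 1 mouse. In sham hearts DESeq2 called 4 of all genes, and fits without 1 mouse 1 to 3. For the difference, DESeq2 called 137 of all genes and 1 of the 10, and fits without 1 mouse 2 to 79 and 0 to 3. With both TAC mice numbered 1 left out, 1775 of all genes passed for TAC with AAV9-Cardinal, 392 (6 of the 10) between vectors in TAC hearts and 42 (2 of the 10) in the difference.

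Signs that reversed were those of small, uncalled differences. Fbn2 for TAC with AAV9-GFP (-0.057 without both mice numbered 1) ranged from -0.055 to 0.52 without 1 mouse, Efemp2 for TAC with AAV9-Cardinal from -0.22 to 0.034, and Fbln1 between vectors in TAC hearts from -0.088 to 0.061. In sham hearts Eln ranged from -0.22 to 0.012, Fbln5 from -0.018 to 0.031, Efemp2 from -0.0023 to 0.060, Mfap4 from -0.14 to 0.18 and Mfap5 from -0.098 to 0.054. In the difference Fbln1 ranged from -0.0079 to 0.15 and was -0.035 without both mice numbered 1. The causes were not tested. DESeq2 gave an adjusted p to 9 of the 10 genes for TAC with AAV9-Cardinal (not Fbn2), 8 between vectors in TAC hearts (not Fbn2 or Efemp2) and 3 in the difference. At these depths Fbn2, with 0 to 18 counts per mouse, cannot show a difference of moderate size.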
